A study of Mus musculus with 22 samples.

Results

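In fully grown mouse oocytes 139 chemoreceptor genes held counts at or above a set level, out of 1946 such genes and 52636 genes in all. Reads shared among near-identical genes were split between them. The number is therefore that of annotated genes with counts, and not each was shown to be transcribed. A chemoreceptor gene here is one whose symbol starts with Olfr, Vmn1r, Vmn2r or Taar. Members were chosen by their level in control oocytes, a mean of at least 0.3 CPM over the 3 wild-type samples of a single-end run or over the 4 heterozygous control samples of a paired-end run. CPM is a gene's count scaled to 1000000 total counts in its sample. Those control levels chose the members, so they are given as a description without a test.

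The 22 libraries each came from 25 C57BL/6 oocytes at the GV (germinal vesicle) stage, when the oocyte is arrested in meiotic prophase, and both runs were made to ask what the small RNA pathways do to the oocyte transcriptome. The single-end run (11 libraries, 50-nt reads, no age in the sample labels) held wild type (n = 3), Dicer dMT/WT (n = 1), Dicer dMT/dMT (n = 4) and Dicer SOM/SOM (n = 3). The study's methods give an age range for the mice that yielded GV oocytes, superovulated or not stimulated, without tying these to a run. The dMT allele lacks the MT retrotransposon promoter that drives the short, oocyte-specific Dicer isoform, and the study states that a residual truncated Dicer is still made from another retrotransposon. The SOM allele encodes an HA-tagged full-length (somatic) Dicer from a locus without introns 2 to 6 and came from 1 embryonic stem cell clone. The paired-end run (11 libraries, 75-nt reads) combined SOM with DAH, an allele of Mili (Piwil2) whose protein has lost its catalytic activity. It held the double mutant, homozygous for DAH and for SOM (n = 4, from mice of 40, 35, 11 and 11 weeks), the piRNA mutant, DAH/DAH with SOM/WT (n = 1, 16 weeks), the RNAi mutant, DAH/WT with SOM/SOM (n = 2, 17 and 13 weeks) and the heterozygous control, DAH/WT with SOM/WT (n = 4, 36, 38, 10 and 17 weeks). Every paired-end library, controls included, therefore carried at least 1 DAH and 1 SOM allele, and the wild type of the other run carried neither. Ages set most same-genotype paired-end libraries apart as different mice, but not the double mutants of 11 weeks. The labels of the single-end run name no animals. A figure legend of the study gives 3 biological replicates for RNA-seq of wild-type, Dicer dMT/dMT and Dicer SOM/SOM oocytes. Another gives 4 for the double mutants and the heterozygous controls. Neither ties a replicate to a mouse, so p-values of the single-end run measure the spread between these samples.

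Total counts were between 49106080 and 90713013 in the single-end run, except in Dicer SOM/SOM replicate 3 at 6468380. Paired-end libraries held 22928936 to 43540806. A level of 3 counts, taken as the limit that a count of 0 allows, was 0.464 CPM in that shallow library and 0.0331 to 0.131 CPM in the other 21, and such limits cover counting error only. Dicer1 itself stood at 973 to 1010 CPM in wild type, 431 to 524 in Dicer dMT/dMT and 44.7 to 54.7 in Dicer SOM/SOM, and at 527 to 740 in the heterozygous controls, 54.3 to 59.6 in the RNAi mutants and 52.9 to 61.0 in the double mutants. The DAH allele is defined by the lost catalysis of the protein, so the Piwil2 transcript, at 1.55 to 12.0 CPM over both runs, is no check of it. Its effect on that level was not tested. The 10 oocyte markers (Zp1, Zp2, Zp3, Gdf9 and others) summed to 12400 to 16900 CPM in every library.

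Chemoreceptors are G protein-coupled receptors of sensory neurons in the nose, where each olfactory neuron transcribes a single odorant receptor gene out of a very large repertoire. Olfr genes encode odorant receptors, Vmn1r and Vmn2r genes the vomeronasal receptors for pheromones, and Taar genes the trace amine-associated receptors. They lie in tandem clusters and many are pseudogenes. In mouse oocytes, Dicer makes endogenous small interfering RNAs from retrotransposons and from paired transcripts of genes and pseudogenes, and MILI binds PIWI-interacting RNAs.

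The most abundant member in both runs was Olfr976, an odorant receptor gene of 3 exons (chr9:39954139-39961133, minus strand, mm10). Of the 139 members 103 could be matched to a promoter window of RefSeq (GRCm38.p6), which runs from 250 bases before to 50 bases after the RefSeq start, and genes with more than 1 start made these 104 windows. The windows below end at most 30 bases inside the gene as annotated, run 5′ to 3′ on the gene's strand and carry in capitals each match to TATAAA on either strand. That of Olfr976 is chr9:39961104-39961294 (minus strand) and is shown because this gene held the largest share of the members' signal, with 3 matches in its window.
Olfr976: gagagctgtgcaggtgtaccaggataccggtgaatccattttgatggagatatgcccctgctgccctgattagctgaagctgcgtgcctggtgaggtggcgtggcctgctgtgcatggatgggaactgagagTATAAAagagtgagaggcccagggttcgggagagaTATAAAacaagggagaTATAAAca
The next pair is Olfr288 (chr15:98195513-98195792, minus strand) and its neighbour Olfr287 (chr15:98221027-98221306, minus strand), the second and the third member in wild type. In a global alignment of the windows 208 of 280 bases were identical (74.3%), and neither window holds TATAAA.
Olfr288: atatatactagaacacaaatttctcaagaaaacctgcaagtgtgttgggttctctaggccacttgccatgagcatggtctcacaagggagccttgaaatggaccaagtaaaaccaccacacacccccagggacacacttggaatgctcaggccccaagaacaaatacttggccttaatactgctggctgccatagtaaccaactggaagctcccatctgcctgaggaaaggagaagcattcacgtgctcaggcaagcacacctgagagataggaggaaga
Olfr287: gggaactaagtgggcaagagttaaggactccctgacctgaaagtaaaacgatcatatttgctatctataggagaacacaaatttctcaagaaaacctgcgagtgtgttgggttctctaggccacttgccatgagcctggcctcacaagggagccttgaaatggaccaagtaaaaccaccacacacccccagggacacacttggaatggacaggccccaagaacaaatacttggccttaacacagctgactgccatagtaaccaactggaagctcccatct
The last is Vmn1r112 (chr7:20770935-20771214, plus strand), a pheromone receptor gene shown because the window of Vmn1r157 (chr7:22761447-22761726, plus strand) is the same in 280 of 280 bases, so that these genes cannot be told apart by sequence there.
Vmn1r112: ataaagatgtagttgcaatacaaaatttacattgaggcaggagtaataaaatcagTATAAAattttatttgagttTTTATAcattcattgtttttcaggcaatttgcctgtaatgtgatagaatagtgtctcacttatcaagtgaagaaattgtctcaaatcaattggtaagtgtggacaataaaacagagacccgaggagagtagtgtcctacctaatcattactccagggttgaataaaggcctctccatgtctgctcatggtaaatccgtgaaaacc

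TATAAA stood on either strand of 49.0% of the members' windows, 38.8% of the windows of other chemoreceptor genes and 13.6% of all windows. The other 3 motifs searched read the same on both strands. TAATTA, the core bound by homeodomain proteins such as LHX2, was in 14.4% of members' windows, 17.2% of those of other chemoreceptor genes and 5.29% of all. CCCNNGGG, a form of the EBF (Olf-1) site, was in 6.73%, 4.02% and 13.7%, and CANNTG (the E-box) in 84.6%, 79.4% and 72.3%. Median GC content was 36.8% in members' windows and 35.7% in those of other chemoreceptor genes, against 53.3% in windows of other genes. The members' windows thus resembled those of the remaining chemoreceptor genes in base composition. RefSeq and the deposited annotation placed the start at the same base for 31 of the 103 members and over 1000 bases apart for 55 (median 1485 bases), so for many genes the window may not be the promoter used in oocytes.

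The 139 members were 100 Olfr, 24 Vmn1r, 14 Vmn2r and 1 Taar gene, out of 1406, 289, 235 and 16. They made up 7.14% of all chemoreceptor genes. Pseudogene symbols were 17.3% of members (24 genes) against 27.3% of all chemoreceptor genes. The families differed: 14.0% of Olfr members against 21.3% of all Olfr genes, and 8.33% against 40.8% for Vmn1r. For Vmn2r the members had the higher share, 57.1% against 48.5%. A further 436 chemoreceptor genes were at 0 in all 22 samples. The members were spread over 16 chromosomes, with 51 of 521 chemoreceptor genes of chromosome 7, 23 of 372 on chromosome 2 and 14 of 173 on chromosome 9. On chromosome 15, which holds only 10 chemoreceptor genes, 6 were members, among them Olfr288, Olfr287 and Olfr283. The members' annotated exons had a median of 2559 bases against 2057 in the other 1807 chemoreceptor genes. A single exon was annotated for 25.9% of members and 33.2% of the others.

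Signal was concentrated in few genes. The members summed to 465.3 to 483.4 CPM in wild type and 481.6 to 573.1 in the heterozygous controls, and held 94.3% and 95.2% of all chemoreceptor CPM. Olfr976 alone gave 32.5% of the members' sum in wild type and 35.9% in the controls, and the first 10 members gave 66.5% and 68.8%. Olfr976 ranked 1461 and 1225 among all genes. It had no near copy and no shared exon, but 100% of its values were not whole. Part of its reads therefore mapped to other places too, and the size of that part was not measured. The median member stood at 0.569 and 0.584 CPM, below the median of 3.31 and 4.03 over all genes tested in each run. In each run 50 members reached 1 CPM, and 8 and 9 reached 10 CPM.

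Levels of different genes were compared per kilobase of exon (CPM divided by exon length). On that scale wild-type and control means were 45.3 and 53.7 CPM per kilobase for Olfr976 and 20.3 and 20.0 for Olfr288 (chr15:98186013-98195542, minus strand). Olfr288 shares 85.2% of its exon bases with the same-strand transcript Gm44579, and fractional counting splits the reads between them, so its value is uncertain. Olfr287 followed at 16.5 and 11.0. Olfr288 and Olfr287 are near copies of each other and 100% of the values of both were not whole, so their levels may rest partly on shared reads. The chromosome 7 pheromone receptor Vmn1r139 stood at 9.67 and 13.8. Next came Olfr1300-ps1 at 9.62 and 10.2 (chr2:111667437-111693319, plus strand), a pseudogene by name. Olfr283 was at 5.80 and 6.93 (chr15:98377699-98380946, minus strand). The other members among the first 10 by CPM in either control group were Vmn1r132 (6.68 and 14.4), Olfr482 (4.48 and 1.23), Olfr650-ps1 (4.14 and 3.23), Vmn2r51 (3.93 and 5.17, the leading member of the V2R family), Olfr214 (3.37 and 3.05) and Olfr667 (3.25 and 4.66). Shorter genes with lower CPM stood as high per kilobase, among them Vmn1r112 (3.94 and 6.97), Vmn1r157 (3.94 and 7.05) and, in wild type, Olfr977-ps1 (3.76 and 0.0626). In CPM, Olfr976 stood at 147, 156 and 156 in the 3 wild-type samples and at 185, 174, 202 and 166 in the 4 heterozygous controls. Olfr288 stood at 40.5, 43.3 and 43.2 and at 44.5, 40.1, 47.8 and 34.4. For these leading genes the samples of a group lay close together. Taar9, the only Taar member (chr10:24108488-24109534, minus strand), stood at 0.808, 1.04 and 1.58 in wild type and 0.738, 0.775, 1.63 and 1.53 in the controls, which overlapped.

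The threshold of 0.3 CPM fell inside a continuum. Just below it in wild type were Olfr695 (0.294), Olfr456 (0.297) and Vmn2r-ps25 (0.298), and just above it Olfr1166 (0.308), Vmn1r62 (0.309) and Olfr1366 (0.311). In the heterozygous controls Olfr1105 (0.285), Olfr1366 (0.292) and Olfr313 (0.296) lay just below and Olfr791 (0.302), Olfr714 (0.306) and Olfr279 (0.312) just above. Between 0.2 and 0.4 CPM there were 54 chemoreceptor genes in wild type and 47 in the controls.

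**Figure D1:**
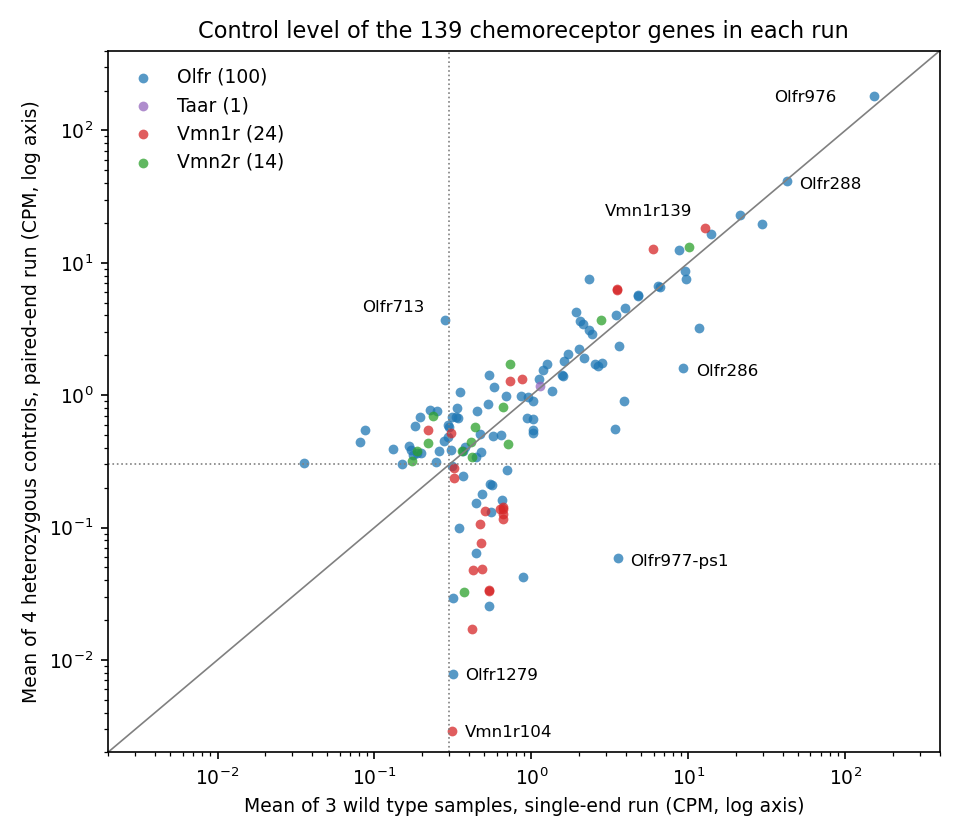
Mean CPM of the 139 members in the 4 heterozygous controls of the paired-end run (vertical, log axis) against the 3 wild-type samples of the single-end run (horizontal, log axis), coloured by receptor family, with dotted lines at 0.3 CPM. Olfr976 sits alone at the top right at 153 and 182 CPM, and 13 of the 25 genes over 4-fold below the diagonal are Vmn1r genes.

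The runs chose partly different genes. Of the 113 members of the single-end wild type 80 were also at 0.3 CPM or more in the paired-end controls (70.8%), which was 75.5% of the 106 members chosen there. Within 2-fold of each other were 79 of the 139 members. A further 25 were over 4-fold higher in the single-end run, 13 of them Vmn1r genes, and 4 were over 4-fold higher in the paired-end run. Genes chosen in the single-end run only had a median of 0.117 CPM in the paired-end controls. Vmn1r104 went from 0.312 to 0.00291 CPM, Olfr977-ps1 from 3.55 to 0.0591 and Olfr286 from 9.31 to 1.61, whereas Olfr713 went from 0.282 to 3.67. Read type, genotype of the controls and sequencing run differ together between these groups and cannot be told apart.

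Near-identical copies touch many of these values. For 66 members another annotated transcript matched at 95% identity or more over at least 50% of the member's transcript, and for 73 none did. Coverage of the other transcript was not asked. Some of the 73 are therefore near copies of other members, among them Vmn1r91 (of Vmn1r139) and Vmn2r26 (of Vmn2r25). Of the 24 Vmn1r members 20 lie on chromosome 7 with between 1 and 44 such copies each. Of the 25 genes over 4-fold higher in the single-end run 15 had a copy. Reads that mapped to several places were counted as fractions, and for 51 members over 90% of the values were not whole numbers. The levels of Vmn1r139 (16 copies), Vmn1r132 and Vmn2r51 (17 copies) therefore describe a group of near-identical genes rather than 1 locus. Members without a near copy or a shared exon can also hold split reads. For Olfr976, Olfr624, Olfr639, Olfr472, Olfr975 and Olfr709-ps1, which have neither, 100% of the values were not whole. Exons of another gene overlapped those of 13 members (9.35%) and 3.43% of the other chemoreceptor genes, and since counting ignored strand, reads of antisense partners cannot be told apart.

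Between the homozygous Dicer genotypes, the chromosome 2 receptor genes Olfr1197, Olfr1196 and Olfr1173 were higher in Dicer SOM/SOM, and Olfr1300-ps1, Olfr877, Olfr214 and Olfr1463 were lower. Dicer SOM/SOM against Dicer dMT/dMT contrasts no control group, and the wild-type samples enter the fit only through the shared estimate of spread. In edgeR's quasi-likelihood test, 133 members could be tested, 11 were higher in Dicer SOM/SOM (8.27%) and 10 lower (7.52%) at an adjusted p under 0.05. Over all 23151 genes tested 4.03% were higher and 3.32% lower. Genes that share reads count separately in the members' shares, Olfr1196 with Olfr1197 among the higher and Vmn1r112 with Vmn1r157 among the lower. The members' median log2 change was -0.30 against 0.009 over all genes, and 74.4% of members stayed within 2-fold against 90.9% of all genes. In bulk samples of 25 oocytes, fewer transcripts in every oocyte and fewer oocytes with the transcript cannot be told apart. Fitted on these groups alone, 18 members were called, 12 higher and 6 lower. The count moved with Dicer SOM/SOM replicates: it was 21 in all, 11 without replicate 1 and 32 without the shallow replicate 3.

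Olfr1197 on chromosome 2 (chr2:88726903-88732366, minus strand) rose the most. It stood at 9.94, 10.2, 6.76 and 9.77 CPM in Dicer dMT/dMT and at 51.2, 38.4 and 35.5 in Dicer SOM/SOM, 4.47-fold apart (log2 change 2.16 ± 0.20, adjusted p = 0.00015). Every Dicer SOM/SOM sample lay above every Dicer dMT/dMT sample. Its neighbour Olfr1196 stood at 1.43, 1.62, 1.04 and 1.48 and at 7.15, 5.54 and 4.23 (log2 change 2.02 ± 0.24, adjusted p = 0.00075). Olfr1196 and Olfr1200 are near copies of Olfr1197, and 90.9% and 86.4% of the values of Olfr1196 and Olfr1197 were not whole, so their reads are shared and the genes cannot be told apart. Olfr1173, also on chromosome 2 (chr2:88273040-88279875, minus strand), stood at 11.4, 10.1, 9.26 and 9.93 and at 33.7, 23.1 and 24.4 (log2 change 1.38 ± 0.15, adjusted p = 0.00037). Neither gene's groups overlapped. Olfr654 stood at 0.652, 0.77, 0.57 and 0.803 and at 1.13, 3.01 and 4.02 (log2 change 1.83 ± 0.41, adjusted p = 0.023), and Taar9 at 1.22, 1.66, 0.781 and 1.25 and at 4.13, 2.74 and 2.63 (log2 change 1.37 ± 0.29, adjusted p = 0.018). Both were higher in every Dicer SOM/SOM sample, but Olfr654 was past the threshold by little and its adjusted p was 0.053 to 0.083 in 5 of the 7 fits that left out 1 of these samples, and that of Taar9 was 0.080 without Dicer SOM/SOM replicate 1. The other 6 members that rose (Olfr1178, Olfr472, Olfr624, Olfr31, Olfr639 and Olfr1340) had log2 changes from 0.93 to 1.06.

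Olfr1300-ps1 fell the most among the members that passed the test. It stood at 2.73, 6.29, 2.57 and 3.77 CPM in Dicer dMT/dMT and at 0.408, 1.56 and 0.618 in Dicer SOM/SOM (log2 change -1.98 ± 0.45, adjusted p = 0.023), and its groups did not overlap. Fitted on these groups alone its adjusted p was 0.051, and without Dicer SOM/SOM replicate 1 it was 0.073. Olfr877 stood at 9.95, 10.8, 9.96 and 9.11 and at 2.8, 3.64 and 0 (log2 change -1.93 ± 0.42, adjusted p = 0.019), and Olfr878 at 1.18, 1.41, 0.911 and 1.05 and at 0.356, 0.314 and 0.309 (log2 change -1.79 ± 0.31, adjusted p = 0.0064). The value of Olfr877 in Dicer SOM/SOM replicate 3 is a count of 0, which allows up to 0.464 CPM, and its adjusted p was 0.055 without Dicer dMT/dMT replicate 2 and 0.051 without Dicer SOM/SOM replicate 1. Olfr214 stood at 2.1, 2.77, 1.5 and 2.25 and at 0.943, 0.486 and 0.773 (log2 change -1.62 ± 0.32, adjusted p = 0.012) and Olfr1463 at 0.845, 1.03, 1.52 and 1.1 and at 0.356, 0.306 and 0.773 (log2 change -1.59 ± 0.33, adjusted p = 0.016). Adjusted p was 0.055 for Olfr214 without Dicer SOM/SOM replicate 2, and for Olfr1463 it was 0.069 without replicate 1 and 0.077 without replicate 2. These 5 genes were lower in every Dicer SOM/SOM sample. In the shallow replicate 3, where 3 counts are 0.464 CPM, the values of Olfr878 (0.309), Olfr1300-ps1 (0.618), Olfr214 and Olfr1463 (0.773 each) also rest on few counts. Vmn1r112 and Vmn1r157, which share their reads, also passed the test: Vmn1r112 stood at 5.09, 4.98, 5.07 and 5.11 in Dicer dMT/dMT and at 1.89, 2.2 and 4.84 in Dicer SOM/SOM (log2 change -1.0 ± 0.24, adjusted p = 0.033). The deeper replicates 1 and 2 were far below Dicer dMT/dMT and the shallow replicate 3 was close to it. The same split showed in Vmn1r139, at 18.1, 18.2, 19.0 and 18.5 and at 7.16, 8.49 and 19.3, which did not pass (adjusted p = 0.08).

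**Figure D2:**
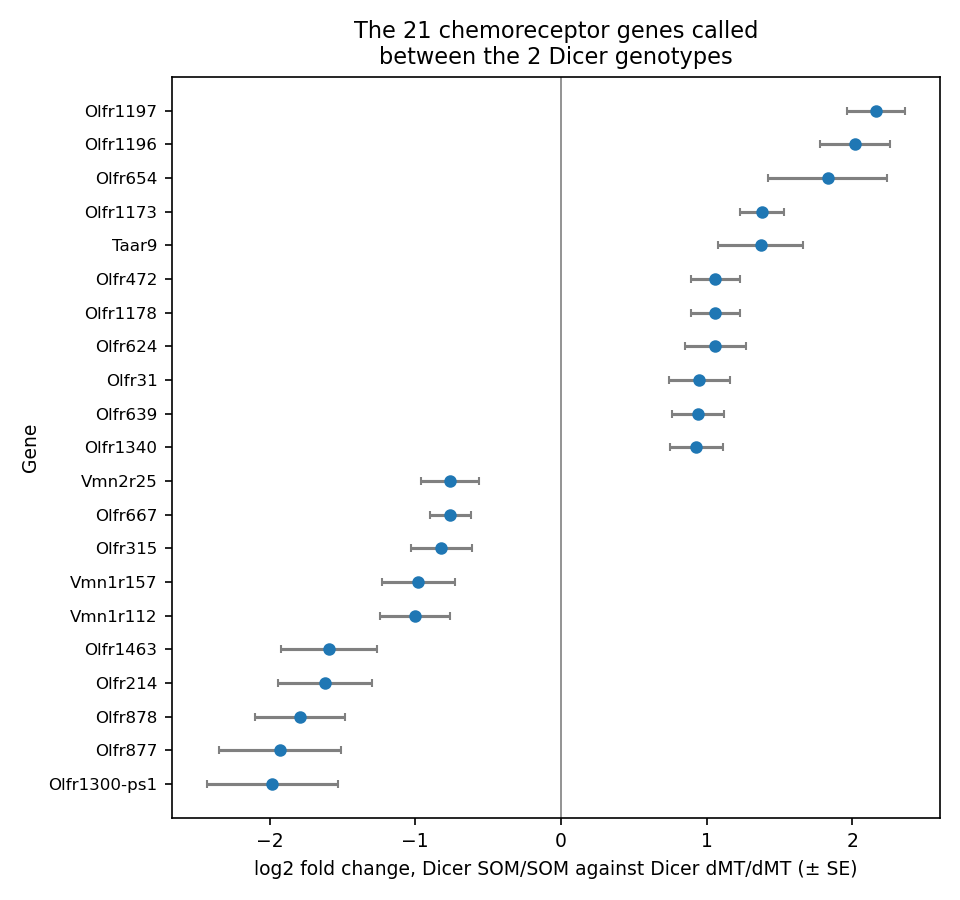
Log2 fold change of Dicer SOM/SOM over Dicer dMT/dMT for the 21 members past an adjusted p of 0.05, with bars of 1 standard error from edgeR and a line at 0. Olfr1197 lies farthest right at 2.16 and Olfr1300-ps1 farthest left at -1.98.

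Against the wild type, Olfr1300-ps1, Olfr214 and Olfr1463 were lower and Olfr1197, Olfr1173 and Olfr1340 higher in both Dicer dMT/dMT and Dicer SOM/SOM. Only members at 0.3 CPM or more in the controls of the other run were counted, since their choice did not need the wild-type samples. Of 101 such members tested, 16 were higher in Dicer dMT/dMT (15.8%) and 10 lower (9.9%), where all genes gave 8.06% and 7.3%. In Dicer SOM/SOM 17 were higher (16.8%) and 18 lower (17.8%), where all genes gave 14.5% and 14.2%. The shares for Dicer SOM/SOM lay near those of all genes. The members' median log2 change was 0.12 in Dicer dMT/dMT and -0.17 in Dicer SOM/SOM. Both comparisons share the wild-type samples, so their values are set side by side and no agreement between them is counted.

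In the paired-end run, Olfr1173, Olfr1197 and Olfr975 rose and Olfr1300-ps1 and Olfr214 fell in the RNAi and in the double mutants against the heterozygous controls. The members counted were the 89 tested ones at 0.3 CPM or more in the wild type of the other run. In the RNAi mutants 14 were higher than in the heterozygous controls (15.7%) and 6 lower (6.74%), where all 20989 genes tested gave 7.07% and 3.64%. With 2 RNAi mutant samples the count rested on few libraries, and the 20 calls became 11 without RNAi mutant replicate 2 and 12 without replicate 1. In the double mutants 20 were higher (22.5%) and 10 lower (11.2%), where all genes gave 12.3% and 8.84%. The median log2 change was 0.04 in the RNAi mutants and 0.23 in the double mutants, which again share their controls. The double mutants split into 1o with 1 and 2o with 2: a chi-square over genes gave 28.9 and 33.3 per gene within these pairs and 83.9 to 108 between them. The heterozygous controls did not split by number, with 1o and 3 closest at 20.9 and the other pairs at 53.5 to 110. With double mutants of the same number summed into 1 sample each, an alternative added after seeing the data, 25 members were called, 16 higher and 9 lower.

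The single-end comparison of Dicer SOM/SOM with wild type and the paired-end comparison of RNAi mutants with heterozygous controls share no sample and both set homozygous SOM oocytes against oocytes with fewer SOM alleles. Both control levels chose the genes counted here, so the counts describe them and nothing is read from their difference from all genes. Of the 79 members tested in both runs and at 0.3 CPM or more in both controls, 31 were called in the single-end run and 19 in the paired-end run. Called in both runs in the same direction were 17, of which 11 were higher (13.9%) and 6 lower (7.59%), and 0 went opposite ways. They were 54.8% of the single-end calls and 89.5% of the paired-end calls. Over the 20089 genes tested in both runs 6.05% were called higher in both and 3.14% lower in both, that is 1848 genes called in both, with 1 in opposite directions. The shared calls were 29.8% of all single-end calls and 83.4% of all paired-end calls.

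**Figure D3:**
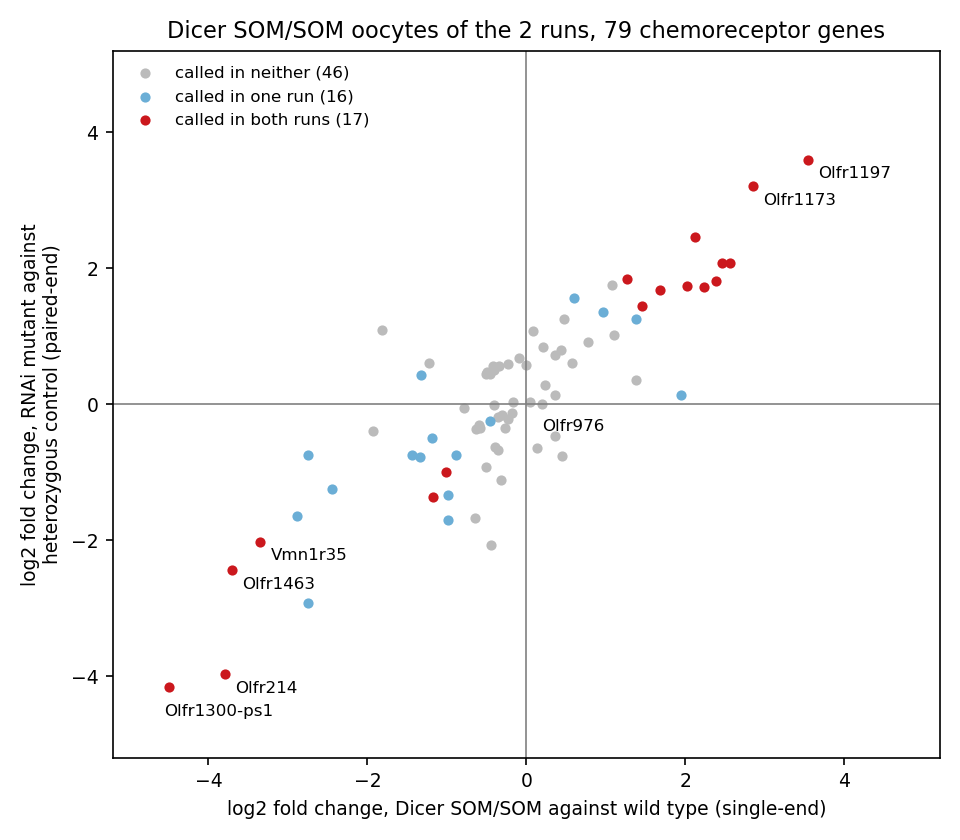
Log2 fold change of RNAi mutant over heterozygous control (vertical) against Dicer SOM/SOM over wild type (horizontal) for the 79 members tested in both runs, with lines at 0. Red points are the 17 genes called in both runs, blue the 16 called in 1 run and grey the 46 called in neither, and the red points lie in the upper right and lower left.

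Among the 6 members lower in both runs, Olfr1300-ps1 fell the furthest. It stood at 21.4, 22.5 and 20.5 CPM in wild type, 2.73, 6.29, 2.57 and 3.77 in Dicer dMT/dMT and 0.408, 1.56 and 0.618 in Dicer SOM/SOM. In the other run it stood at 20.8, 27.7, 26.1 and 16.7 in the heterozygous controls, 0.829 and 1.59 in the RNAi mutants and 0.675, 1.1, 1.6 and 2.41 in the double mutants. No mutant sample of these 4 groups reached any control. The lone Dicer dMT/WT sample at 21.7 and the lone piRNA mutant at 26.2 lay at control level. Its log2 change was -4.50 ± 0.48, adjusted p = 5.5e-05 in Dicer SOM/SOM and -4.16 ± 0.48, adjusted p = 6.5e-05 in the RNAi mutants, 22.7-fold and 17.9-fold lower.

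Olfr214 (chr6:116554235-116560611, plus strand) stood at 9.51, 11.7 and 7.22 in wild type, 2.1, 2.77, 1.5 and 2.25 in Dicer dMT/dMT and 0.943, 0.486 and 0.773 in Dicer SOM/SOM, and at 8.5, 7.23, 11.5 and 7.2 in the controls, 0.654 and 0.443 in the RNAi mutants and 1.27, 0.115, 1.06 and 1.58 in the double mutants. Its log2 change was -3.79 ± 0.33, adjusted p = 1.5e-05 in Dicer SOM/SOM and -3.97 ± 0.69, adjusted p = 0.0018 in the RNAi mutants. Again the mutants of these 4 groups lay below every control, with the piRNA mutant at 8.94. Olfr1463 (chr19:13231328-13236400, plus strand) stood at 4.94, 5.83 and 3.5, 0.845, 1.03, 1.52 and 1.1 and 0.356, 0.306 and 0.773 in the single-end groups and at 6.5, 5.68, 5.7 and 4.99, 0.916 and 1.13 and 0.567, 0.746, 2.33 and 0.977 in the paired-end groups, in the same order. Its log2 change was -3.70 ± 0.34, adjusted p = 2.2e-05 in Dicer SOM/SOM and -2.44 ± 0.49, adjusted p = 0.005 in the RNAi mutants, and without RNAi mutant replicate 1 the latter adjusted p was 0.081. Olfr667 fell less, from 9.19, 8.55 and 8.55 in wild type to 4.25, 4.28 and 3.01 in Dicer SOM/SOM (log2 change -1.18 ± 0.15, adjusted p = 0.00016) and from 11.9, 15.7, 10.7 and 12.0 in the controls to 4.06 and 5.49 in the RNAi mutants (log2 change -1.37 ± 0.25, adjusted p = 0.0029), where adjusted p was 0.068 without RNAi mutant replicate 1. The pheromone receptor gene Vmn1r35 stood at 0.864, 0.823 and 0.926 in wild type and at 0.0251, 0.152 and 0 in Dicer SOM/SOM, at or near a few counts. It has 2 near copies, and its call in the RNAi mutants was lost without RNAi mutant replicate 1 (adjusted p = 0.17) and without replicate 2 (0.24). The last, Olfr650-ps1, had log2 changes of -1.01 and -0.99.

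Olfr1197 and Olfr1173 led the 11 members higher in both runs. Olfr1197 stood at 2.98, 4.39 and 2.94 CPM in wild type against 51.2, 38.4 and 35.5 in Dicer SOM/SOM (log2 change 3.54 ± 0.24, adjusted p = 2.6e-06). In the paired-end run it stood at 3.12, 3.08, 5.02 and 5.01 in the controls, 45.3 and 50.7 in the RNAi mutants and 26.8, 34.1, 26.4 and 27.0 in the double mutants (log2 change 3.60 ± 0.21, adjusted p = 1e-07 in the RNAi mutants and 2.82 ± 0.19, adjusted p = 2.3e-07 in the double mutants). Every sample of Dicer dMT/dMT, Dicer SOM/SOM, RNAi mutant and double mutant lay above every control of its run, and the lone piRNA mutant at 1.01 lay below them. Olfr1173, which has a near copy in Olfr1168, stood at 3.66, 3.77 and 3.38 in wild type, 11.4, 10.1, 9.26 and 9.93 in Dicer dMT/dMT and 33.7, 23.1 and 24.4 in Dicer SOM/SOM (log2 change 2.85 ± 0.17, adjusted p = 1.5e-06 in the last). It stood at 2.51, 1.66, 1.93 and 3.26 in the controls, 19.1 and 23.2 in the RNAi mutants and 40.0, 23.6, 40.1 and 23.3 in the double mutants (log2 change 3.21 ± 0.29, adjusted p = 7.9e-06 and 3.76 ± 0.27, adjusted p = 5e-07), where samples 1o and 1 were the higher pair. The lone piRNA mutant at 1.86 lay inside the control range of Olfr1173.

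A pair of genes on chromosome 7, Olfr624 (chr7:103665461-103671191, minus strand) and Olfr639 (chr7:104006231-104017303, minus strand), rose in parallel. Neither had a near copy, but 100% of the values of each were not whole, so part of their reads mapped to other places too. Whether the genes share reads was not tested. Olfr624 stood at 2.47, 2.32 and 2.18 in wild type, 6.47, 6.0, 5.44 and 6.0 in Dicer dMT/dMT and 18.2, 9.39 and 10.2 in Dicer SOM/SOM, and at 8.68, 7.19, 5.31 and 8.88 in the controls, 28.0 and 24.6 in the RNAi mutants and 43.5, 21.3, 47.0 and 19.4 in the double mutants. Olfr639 stood at 2.26, 2.07 and 1.8, 5.48, 5.26, 4.52 and 5.21 and 12.9, 8.11 and 8.86, and at 3.91, 3.56, 2.78 and 4.29, 9.76 and 13.7 and 16.5, 7.1, 19.2 and 11.3, in the same order of groups. In Dicer dMT/dMT, Dicer SOM/SOM, RNAi and double mutants neither gene overlapped the controls, while the lone piRNA mutant at 6.61 and 3.17 lay within their range. The genes had log2 changes of 2.39 ± 0.24, adjusted p = 3.8e-05 and 2.23 ± 0.20, adjusted p = 1.9e-05 in Dicer SOM/SOM. In the double mutants both genes were highest in the same pair of samples, 1o and 1, which came from mice of 40 and 11 weeks. Olfr1340 (chr4:118720138-118729395, plus strand) stood at 1.36, 1.8 and 1.67 in wild type, 11.4, 9.27 and 8.66 in Dicer SOM/SOM, 1.31, 2.07, 2.73 and 1.14 in the controls and 7.24 and 7.86 in the RNAi mutants (log2 change 2.56 ± 0.21, adjusted p = 9.9e-06 and 2.08 ± 0.34, adjusted p = 0.00098). Olfr472 (chr7:107897902-107907762, plus strand) differed between the runs in level but rose in each, from 3.91, 3.99 and 3.74 to 21.8, 12.4 and 15 in Dicer SOM/SOM and from 0.837, 0.867, 0.8 and 1.09 to 3.02 and 2.9 in the RNAi mutants (log2 change 2.02 ± 0.19, adjusted p = 2.6e-05 and 1.74 ± 0.33, adjusted p = 0.0032). The remaining 5 (Taar9, Olfr1314, Vmn1r62, Olfr975 and Vmn2r-ps61) were low in every control, at 1.63 CPM or less, and had log2 changes from 1.26 to 2.46 in Dicer SOM/SOM.

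**Figure D4:**
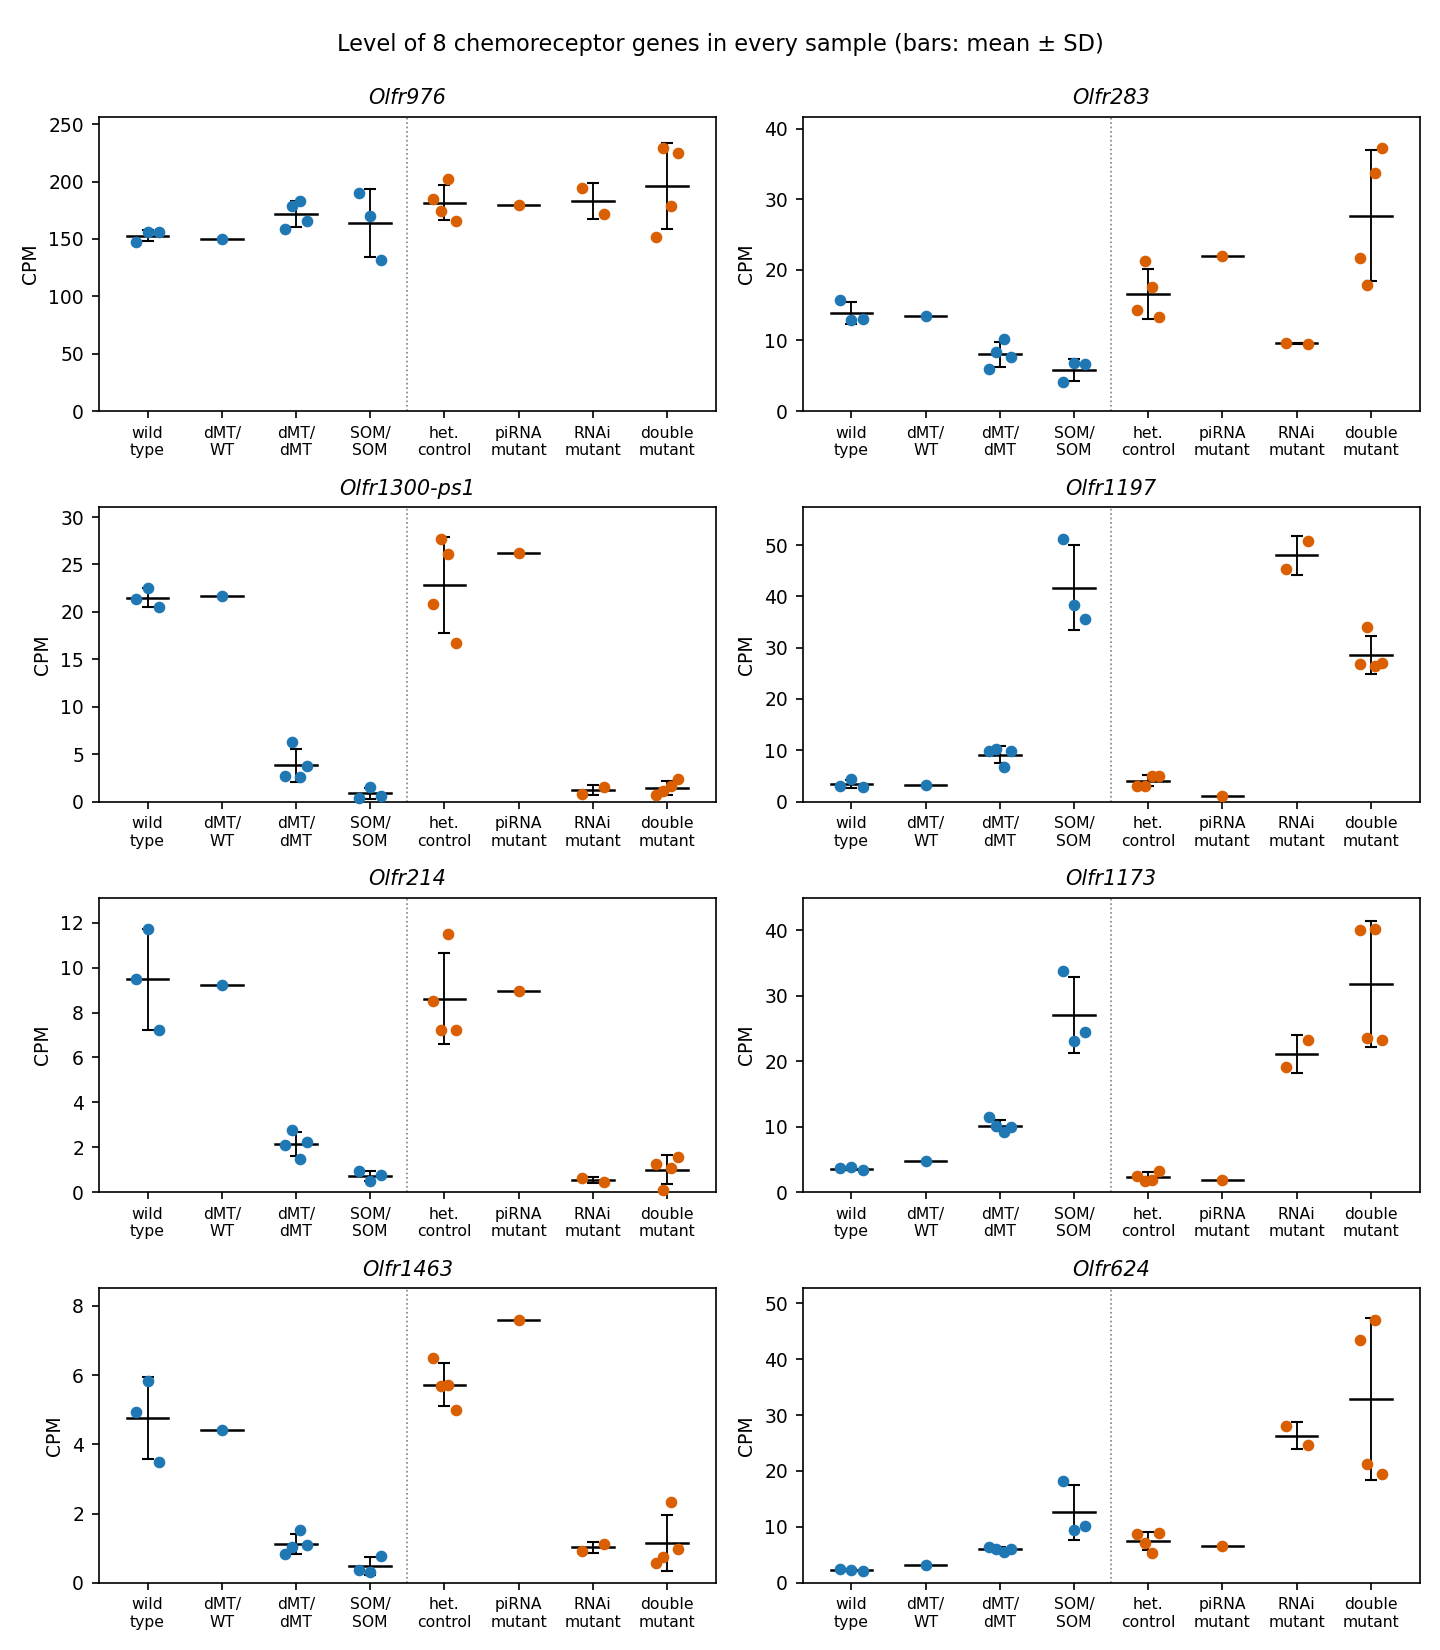
CPM of 8 members in all 22 samples, 1 panel a gene with a vertical axis of its own, points for samples with the group mean and SD, single-end groups in blue and paired-end groups in orange. Olfr976 is level across groups, Olfr1300-ps1, Olfr214 and Olfr1463 drop in Dicer dMT/dMT and Dicer SOM/SOM and in the RNAi and double mutants, and Olfr1197, Olfr1173 and Olfr624 rise in the same groups.

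Olfr976 and Olfr288, the highest members in both control groups, were not among these. Olfr976 stood at 159, 179, 183 and 166 CPM in Dicer dMT/dMT, 190, 170 and 132 in Dicer SOM/SOM, 194 and 172 in the RNAi mutants and 152, 229, 179 and 225 in the double mutants. Its log2 change was 0.04 ± 0.13, adjusted p = 0.84 in Dicer SOM/SOM against wild type and 0.03 ± 0.17, adjusted p = 0.94 in the RNAi mutants against their controls, within the spread of samples. Olfr288 was at -0.23 and -0.22 and did not pass either. Olfr283 fell in the single-end run, from 15.7, 12.9 and 13.0 in wild type to 4.07, 6.74 and 6.65 in Dicer SOM/SOM (log2 change -1.34 ± 0.23, adjusted p = 0.0014). In the paired-end run it stood at 14.3, 21.2, 17.5 and 13.3 in the controls, 9.59 and 9.55 in the RNAi mutants and 21.7, 17.9, 33.7 and 37.2 in the double mutants, and the log2 change in the double mutants was 0.73 ± 0.23, adjusted p = 0.041 although the groups overlapped. Summed over all 139 members, the level was 484.3 to 512.4 in Dicer dMT/dMT, 496.9 to 576.4 in Dicer SOM/SOM, 570.6 to 598.3 in the RNAi mutants and 598.4 to 671.5 in the double mutants, against 465.3 to 483.4 in wild type and 481.6 to 573.1 in the controls.

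Other members were chosen in 1 run only or called in 1 run only. Olfr457, which has near copies in Olfr456 and Olfr458, rose from 0.118, 0.478 and 0.0821 in wild type to 2.7, 2.95 and 1.39 in Dicer SOM/SOM (log2 change 3.40 ± 0.62, adjusted p = 0.002). The paired-end controls chose it and stood at 1.02, 1.26, 0.213 and 0.587, with 4.45 and 4.07 in the RNAi mutants and 6.06, 6.02, 4.22 and 3.13 in the double mutants, given without a test. Olfr693 fell from 0.767, 1.45 and 0.624 to 0.161, 0.0941 and 0.155 (log2 change -2.89 ± 0.55, adjusted p = 0.0027) and Olfr1416 from 1.15, 0.749 and 1.18 in wild type to 0.395, 0.405, 0.272 and 0.325 in Dicer dMT/dMT (log2 change -1.59 ± 0.26, adjusted p = 0.0025). In these cases the groups did not overlap. Olfr1166 rose from 0.452, 0.203 and 0.268 to 1.05, 0.958, 1.06 and 0.665 in Dicer dMT/dMT (log2 change 1.57 ± 0.36, adjusted p = 0.014). Olfr709-ps1, chosen by its level in the paired-end controls, stood at 0.386, 0.448, 1.08 and 1.11 there, 7.23 and 7.74 in the RNAi mutants and 23.2, 20.5, 17.0 and 10.7 in the double mutants, given without a test. In the single-end run, which did not choose it, it stood at 0.241, 0.217 and 0.29 in wild type, 3.21, 1.59, 0.935 and 1.75 in Dicer dMT/dMT and 1.33, 1.14 and 0.699 in Dicer SOM/SOM (log2 change 2.85 ± 0.42, adjusted p = 0.0011 in Dicer dMT/dMT).

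The double mutant against the RNAi mutant asks what the loss of MILI catalysis adds when both groups are Dicer SOM/SOM. It contrasts no control group, and the controls enter only through the shared estimate of spread. In edgeR 114 members were tested and 0 were called, with 7 at an unadjusted p under 0.05 and a median log2 change of 0.17. Over all 20989 genes 0.31% were higher and 0.00476% lower. DESeq2 called 3 members, with 0.753% of its 20574 genes higher and 0.0729% lower. Its calls were Olfr248 (log2 change 1.97, adjusted p = 0.00095), Olfr283 (1.51, adjusted p = 0.00014) and Olfr1197 (-0.78, adjusted p = 0.035). Olfr248 stood at 0.85 and 1.25 CPM in the RNAi mutants and 4.11, 3.8, 5.63 and 3.66 in the double mutants, and Olfr283 at 9.59 and 9.55 and 21.7, 17.9, 33.7 and 37.2. For both genes every double mutant lay above both RNAi mutants, while edgeR gave adjusted p = 0.078 and 0.068. Only 2 RNAi mutant samples enter this comparison, so a miss is no sign that the groups are alike. With double mutants of the same number summed, edgeR called 1 member, Olfr283.

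The lone genotypes have no replicate and were set against the range of their controls, which chose the members. In Dicer dMT/WT 59 of the 113 members of that run lay within the wild-type range (52.2%), 0 were more than 2-fold above its highest sample and 1 was less than 50% of its lowest (0.885%), Olfr792 at 0.226 CPM against at least 0.519. Of all 19431 genes at 0.3 CPM or more in wild type, 41.6% lay within the range, 0.283% above by that fold and 1.85% below. In the piRNA mutant 66 of 106 lay within the control range (62.3%), 2 were more than 2-fold above the highest control (1.89%) and 6 less than 50% of the lowest (5.66%), where all 18117 genes at that level gave 63.9%, 0.265% and 1.66%. The 2 higher genes were both V2R genes, Vmn2r-ps69 at 1.42 CPM against at most 0.595 and Vmn2r1 at 1.13 against at most 0.407. The lower ones included Olfr1197 at 1.01 against at least 3.08 and Olfr206 at 1.33 against at least 3.13. These are single samples, and no test was made.

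Genes beside the 17 members called in both runs were read next, within 100 kb. Tested neighbours existed for 14 of the 17. Of 42 neighbours tested in Dicer SOM/SOM against wild type 18 were called, 11 in the direction of the member, and without neighbours that are members themselves 14 of 32 (43.8%), 8 in its direction. Over all genes tested 14.5% were higher and 14.2% lower, neighbours include near copies, and nothing is read from the count. Around Olfr1197, the receptor genes Olfr1198 and Olfr1200, below 0.3 CPM in both controls, rose in Dicer SOM/SOM with log2 changes of 3.55 and 3.93. Olfr1196, which the wild type chose, went from a mean of 0.557 CPM there to 5.64, given without a test. Olfr1196 and Olfr1200 are the near copies that share reads with Olfr1197. Beside Olfr1300-ps1, the overlapping transcript Gm44840 fell, with a log2 change of -4.80. The receptor gene Olfr1299 at 1.62 kb, also chosen by the wild type, went from a mean of 0.442 CPM there to 0.0192 in Dicer SOM/SOM, given without a test. Gm44840 shares 10.3% of the member's exon bases, so part of its reads are the same. Near Olfr667, the transcripts Gm45272 and Gm45275 at 1.49 and 3.37 kb fell by 1.68 and 2.79 on the log2 scale. In Dicer SOM/SOM, Alox5 by Olfr214 also fell (log2 change -4.07). Ovch2 by Olfr472 (1.27), Olfr1312 by Olfr1314 (1.91) and Olfr972 by Olfr975 (1.54) rose with the member. In the RNAi mutants against the controls, Gm44840 (-4.58), Gm45272 (-1.32), Olfr1196 (3.56), Olfr1198 (4.52) and Ovch2 (1.85) were called in edgeR. Gm45275 (-2.43, adjusted p = 0.068), Alox5 (-1.02, 0.76) and Olfr1312 (1.66, 0.19) were not, and Olfr1200 and Olfr1299 were not tested there. Olfr972, which the controls chose, went from a mean of 0.584 CPM to 0.392, given without a test. Some neighbours did not move with the member. Olfr975 (chr9:39948131-39952046, minus strand) rose with log2 changes of 2.12 and 2.46, and Olfr976, only 2.09 kb away on the same strand, was at 0.04 and 0.03. Olfr1174-ps, 30.4 kb from Olfr1173, fell by 1.44 where Olfr1173 rose. Also falling beside a member that rose were Gm40614 by Taar9 (log2 change -5.3), Stx7 by Taar9 (-0.56) and Cfap57 by Olfr1340 (-0.54). Rising beside a member that fell were Trim6 by Olfr650-ps1 (2.29), Usp17la by Olfr667 (2.82) and Olfr1459 by Olfr1463 (1.44). None of these opposite neighbours was called in the RNAi mutants, where Olfr1459 was not tested.

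The receptors' signalling partners were looked up in a list of 38 genes of olfactory and vomeronasal signalling and receptor choice, 33 of which were tested in each run. Called higher and lower were 1 and 0 in Dicer SOM/SOM against Dicer dMT/dMT (3.03% and 0%, all genes 4.03% and 3.32%). Against wild type they were 6 and 4 in Dicer dMT/dMT (18.2% and 12.1%, all genes 8.06% and 7.3%) and 7 and 2 in Dicer SOM/SOM (21.2% and 6.06%, all genes 14.5% and 14.2%). Against the controls they were 4 and 3 in the RNAi mutants (12.1% and 9.09%, all genes 7.07% and 3.64%) and 5 and 2 in the double mutants (15.2% and 6.06%, all genes 12.3% and 8.84%). Between these mutants they were 0 and 0 (all genes 0.31% and 0.00476%). These shares rest on few genes. Gnao1, the G protein subunit of the V2R neurons, rose from 1.04 CPM in wild type to 4.48 in Dicer SOM/SOM and from 0.512 in the controls to 2.76 in the RNAi mutants. Cngb1, a channel subunit of olfactory neurons, rose from 1.38 to 2.67 and from 1.14 to 4.84. Cnga4, another subunit of that channel, fell from 6.35 to 2.71 and from 6.22 to 1.84. Pde1c, a phosphodiesterase, rose from 13.2 to 29.7 and from 20.6 to 36.9, and the transcription factor Ebf2 fell from 4.58 to 0.871 and from 7.13 to 0.922. All of these passed the edgeR test in both comparisons, and subunits of the same channel thus went in opposite directions. Ehmt2, a histone methyltransferase, was the call in Dicer SOM/SOM against Dicer dMT/dMT, at 3.95 against 1.68.

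Markers of the neurons that normally transcribe these receptors were low or mixed. Omp, the marker of mature olfactory neurons, was at 3 counts or fewer in 18 of 22 samples, and the receptor transport genes Rtp1 and Rtp2 in 22 of 22. Transduction genes of the same neurons, Gnal, Adcy3, Cnga2, Cnga4, Cngb1 and Gng13, were over 3 counts in all 22, with Cnga2 at means of 3.73 CPM in wild type and 4.22 in the controls. The list of 10 olfactory neuron markers summed to 16.8 to 18.4 CPM in wild type, 15.1 to 19.4 in Dicer dMT/dMT, 16.3 to 19.3 in Dicer SOM/SOM, 21.7 to 25.5 in the controls, 27.3 to 29.9 in the RNAi mutants and 26.1 to 29.8 in the double mutants. In wild type and controls most of that came from Adcy3, Cnga2 and Cnga4, and in each comparison at most 2 of its genes were called higher and 1 lower. The 4 vomeronasal markers summed to 67.5 to 98.4 CPM, nearly all of it Gnai2, and Trpc2, the channel of vomeronasal neurons, was over 3 counts in all 22 samples and stood at 0.143 to 0.778. At most 2 of the 4, Gnao1 and Gng8, were called in a comparison, both higher. Granulosa and cumulus markers summed to 40.4 to 53.3 in wild type, 44.7 to 110 in Dicer dMT/dMT, 43.9 to 100 in Dicer SOM/SOM, 55.3 to 89.8 in the controls, 51.2 to 60.2 in the RNAi mutants and 63.4 to 94.0 in the double mutants. At most 1 of these 10 was called higher and 2 lower. Theca and stroma markers summed to 1.51 to 19.7, with 1 of the 6 called, Star in Dicer SOM/SOM against wild type. Of the 10 oocyte markers Mos alone was called, lower in all 4 mutant groups against their controls. Leukocyte markers summed to 46.9 to 48.8 in wild type and 40.2 to 51.8 in Dicer dMT/dMT against 31.6 to 34.2 in Dicer SOM/SOM, and to 46.3 to 68.3 in the controls against 40.6 to 42.1 in the RNAi mutants and 31.0 to 61.7 in the double mutants, which overlapped the controls. Nearly all of it was Ms4a1 (27.9 to 68.1 over all samples), while Ptprc was at 3 counts or fewer in 18 of 22 samples and at most 1 of the 6 genes was called in each direction. The part of these lists in the members' changes was not tested.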

How the data were processed

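Values are estimated counts per gene, often not whole, deposited by the authors in 1 table of 52636 genes and 22 samples. Per the study's methods, reads were mapped with STAR 2.5.3a to mm10, keeping up to 99999 places per read, and counted over GENCODE M15 exons with featureCounts, unstranded. Reads with several places or overlapping genes were split into fractions, so levels of near-identical genes are shared among copies. Symbols were matched for 52403 of 52636 identifiers.

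Members and lists were chosen with earlier results of these data known. CPM was computed from each sample's total. Counts were rounded and tested in each run apart with edgeR 4.0.16 (TMM, quasi-likelihood F test, Benjamini-Hochberg adjustment over all genes tested, adjusted p under 0.05), after a script check on simulated data. Low counts were filtered by edgeR's rule with a smallest group of 2 samples, so the lone piRNA mutant did not set it, and the lone Dicer dMT/WT sample stayed out of the fit. DESeq2 1.42.0, other size factors, no filter, a replicate block, a term for age, fits of only the groups compared, double mutants of the same number summed (added after seeing the data) and leaving out each sample were alternatives. None of 25 replicate pairs was identical or within sampling noise.

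Genes named were the 10 highest in each control group, the highest of each family, up to 5 rises and 5 falls per comparison and the 3 on either side of the threshold. Genes named for a difference between the runs, a copy, a call in both runs or as neighbours were chosen after their values were seen. Near copies were found with BLAST 2.17.0 in GENCODE M21 transcripts.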

Additional observations from a re-analysis of the deposited data

Results flagged for a closer look

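In groups of 4 samples, 90 pairs of a named member and a group were searched for a sample far from the other 3, and 6 were found where chance gives about 1 in 20. In Dicer dMT/dMT, Olfr1197 was 6.76 CPM in replicate 3 against 9.77 to 10.2 in the others. Olfr316 was 1.27 in replicate 2 against 0.747 to 0.83, and Olfr457 was 1.6 in replicate 4 against 0.61 to 0.733. In the double mutants, sample 2o had Olfr1197 at 34.1 against 26.4 to 27.0 and Olfr1416 at 0.507 against 0.165 to 0.202. In the heterozygous controls, Olfr482 was 4.12 in sample 2 against 2.83 to 3.03.

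All 139 members were searched for groups that lay apart in opposite directions in the runs, and 1 was found, Vmn2r-ps106. The number that chance would give was not worked out. Vmn2r-ps106 was lower in Dicer SOM/SOM, with a mean of 0.552 CPM (0.535 to 0.565), than in wild type (0.611 to 0.798). It was higher in the RNAi mutants (2.25 to 2.26) than in the heterozygous controls (1.51 to 1.92). The gene has 5 near copies and 100% of its values were not whole. Its 0.535 CPM in the shallow Dicer SOM/SOM replicate 3 is close to the 0.464 CPM of 3 counts. The difference between the runs was not tested.

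The lone piRNA mutant, which enters no test of members against controls, had Vmn2r-ps69 at 1.42 CPM and Vmn2r1 at 1.13 CPM, above every heterozygous control (at most 0.595 and 0.407).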

How the results depend on the processing

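Of 50 gene and comparison pairs with a named call, 38 kept their side of the threshold under every alternative fitted, and of 620 refits 585 did, 35 lost significance and 0 changed sign. The losses fell on 12 pairs, among them Olfr654 and Taar9 in Dicer SOM/SOM against Dicer dMT/dMT, Olfr457 in Dicer dMT/dMT and Vmn1r35 in the RNAi mutants. In Dicer SOM/SOM against Dicer dMT/dMT the 21 calls became 12 with a replicate block, and 11 (without Dicer SOM/SOM replicate 1) to 32 (without the shallow replicate 3) when a sample was left out. In RNAi mutant against heterozygous control the 20 calls became 12 with a replicate block and 11 to 23 when a sample was left out, the lowest without RNAi mutant replicate 2. In double mutant against RNAi mutant, 0 calls became 3 with DESeq2, 2 with no filter on low counts, 1 with only these groups in the fit, 1 with double mutants of the same number summed (an alternative chosen after seeing the data) and 0 to 1 when a sample was left out, the 1 without double mutant 2o. The other comparisons stayed within 1.5 times their counts, at 19 to 25 for Dicer dMT/dMT, 29 to 42 for Dicer SOM/SOM and 25 to 31 for the double mutant when a sample was left out. A term for age left 0, 17 and 31 calls in the paired-end comparisons. With the block, adjusted p in Dicer SOM/SOM against Dicer dMT/dMT was 0.058 for Olfr877 and 0.069 for Olfr1463, and for Olfr667 in the RNAi mutants 0.056. With the block, Dicer dMT/dMT and Dicer SOM/SOM against wild type and the double mutant against controls had 20, 29 and 30 calls.

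Replicate numbers did not pair the samples of the single-end run, and pairing was left unresolved in the paired-end run. Deviations of same-numbered samples from their group means correlated at -0.03 to 0.09 in the single-end run, with 0 of 9 pairs over 0.1. In the paired-end run they correlated at -0.14 to 0.26, with 2 of 6 pairs over 0.1. The sources used here tie no number to a shared animal or day. Within the double mutants alone, samples split by number.

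The number of members was 80 when both control groups had to reach the threshold, 98 at 0.5 CPM and 141 with TMM-scaled CPM. The share of single-end members that also passed in the paired-end controls, 70.8%, became 77.2% at 0.5 CPM and 64.5% to 72.6% when a control sample was left out, the lowest without wild-type replicate 3. The cause of these shifts was not tested. Depth limits Dicer SOM/SOM replicate 3 most, where members under 0.464 CPM can be at 0 by counting alone.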
